A study of Mus musculus with 4 samples.

Results

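*Fgfr1*, *Fgfr2*, *Fgfr3*, *Insr*, *Igf1r*, *Erbb4*, *Ntrk2* and *Ntrk3* encode receptor tyrosine kinases whose transcripts carry alternative exons. They are 8 of the 23038 genes of the deposited tables, chosen by name, and their splicing events are 51 of 38240. Cortical polyA RNA of E14.5 mouse embryos was sequenced as paired reads of 150 nt. The 2 control samples were *Qk* fl/fl (the labels call them wild type), and the 2 *Qk* cKO samples were Nestin-Cre; *Qk* fl/fl, so that both groups carried the floxed allele and only the *Qk* cKO samples carried Cre. Cre was driven by the Nestin promoter, which is active in neural progenitors, so that cells of other origin in the same tissue keep *Qk*. The labels call the replicates independent, and the embryos were littermates per the paper.

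Receptor tyrosine kinases span the membrane once, bind a ligand outside the cell and phosphorylate tyrosines inside it. Alternative exons change what they bind or signal. In the FGF receptors, the later part of the third Ig-like domain is encoded by exon IIIb or exon IIIc, which sets the ligands that are bound, with IIIb typical of epithelium and IIIc of mesenchyme and neural tissue. The first Ig-like domain and the acid box, a run of acidic residues, are also alternative and lower the affinity for ligand. The insulin receptor has a short exon in its ligand-binding part that separates isoforms A and B, and isoform A also binds *Igf2*. *Erbb4*, a neuregulin receptor, has a cytoplasmic exon that carries a binding site for phosphoinositide 3-kinase. The receptors for *Bdnf* and neurotrophin 3, *Ntrk2* and *Ntrk3*, have full-length and truncated forms. Quaking, the product of *Qk*, is an RNA-binding protein that regulates splicing in neural progenitors.

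The sequences below are those of the alternative exons on which the splicing results turn. They were read from GENCODE M21 transcripts on GRCm38 (mm10), 5′ to 3′ on the coding strand. The first pair are the acid box exons. The *Fgfr2* exon of 78 nt lies on the minus strand at chr7:130241200-130241277 (exon 3 of Fgfr2-202), and the *Fgfr3* exon of 54 nt lies on the plus strand at chr5:33728192-33728245 (exon 4 of Fgfr3-201). Both are coding. Capitals mark codons for an acidic residue, which make up 9 of 25 complete codons in *Fgfr2* and 8 of 17 in *Fgfr3*.
*Fgfr2* 78-nt exon: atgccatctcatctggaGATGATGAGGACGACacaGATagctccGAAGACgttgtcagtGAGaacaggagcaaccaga
*Fgfr3* 54-nt exon: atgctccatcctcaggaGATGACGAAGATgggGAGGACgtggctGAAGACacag

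The IIIb exon of *Fgfr3*, of 151 nt, is shown because its share was the IIIb share that could be tested. It lies at chr5:33731281-33731431 on the plus strand. Capitals mark its longest run shared with the IIIc exon of the same gene, 9 nt.
*Fgfr3* IIIb: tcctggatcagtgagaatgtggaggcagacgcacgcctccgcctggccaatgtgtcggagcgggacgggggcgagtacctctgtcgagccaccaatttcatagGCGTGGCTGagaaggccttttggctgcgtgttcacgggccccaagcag
The IIIb and IIIc exons of *Fgfr3* were identical at 51.9% of aligned positions.

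In *Insr* and *Erbb4*, the alternative exon is shown in capitals between 12 nt of each neighbouring exon, because its presence or absence is the event. The *Insr* exon of 36 nt lies at chr8:3181702-3181737 on the minus strand (exon 4 of the annotated transcript Insr-203). The coding *Erbb4* exon of 48 nt lies at chr1:68043908-68043955 on the minus strand (exon 26 of Erbb4-201) and holds 16 codons.
*Insr* 36-nt exon: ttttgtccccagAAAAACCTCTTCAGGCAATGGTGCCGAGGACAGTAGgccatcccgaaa
*Erbb4* 48-nt exon: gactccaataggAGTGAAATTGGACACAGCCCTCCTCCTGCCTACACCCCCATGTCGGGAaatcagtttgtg

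Short shifts of a splice site add 6 nt to the 3′ end of a coding exon of *Fgfr1* (chr8:25557815-25557820, exon 4 of Fgfr1-201) and 3 nt to the 5′ end of a coding exon of *Fgfr3* (chr5:33733254-33733256, exon 10 of Fgfr3-209). The added bases are in capitals, between bases of the transcript, and both genes are on the plus strand.
*Fgfr1* 6-nt extension: ccaaaccaaaccGTAGGCctgtagctccct
*Fgfr3* 3-nt extension: cttaagcgacagCAGgtgtccttggaa
The 6-base motif ACTAAC, which Quaking binds in RNA, was not found on either strand of the 16 annotated alternative exons of these genes. Among annotated internal exons of similar length (within 10 percent), 0.360% to 1.93% hold it on the sense strand and 0.111% to 1.11% on the other. Introns were not searched here.

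Between 37942046 and 42994832 tags, the units that the quantification counts, were assigned to genes in each sample. In *Qk* itself, the junction of exons 2 and 3, next to the deleted exon 2, had 635 and 565 tags in control and 63 and 68 in *Qk* cKO. The level of *Qk* over the whole gene, in RPKM (tags scaled by exon length and by the total of the library), was 21.1 and 21.7 in control and 32.5 and 34.2 in *Qk* cKO (log2 fold change 0.65 ± 0.06, SE, edgeR FDR = 2.50e-05). Without control replicate 2 it was not called (FDR = 0.341). All 10 markers of radial glia, the progenitors of the cortex, and all 10 of neurons had a mean of at least 1 RPKM. The summed level of the radial glia markers lay between 1565 and 1686 RPKM in control and between 1317 and 1378 RPKM in *Qk* cKO, with *Fabp7* and *Slc1a3* called lower. By sign, 7 of the 10 were lower, and the median log2 fold change of the list was -0.095. The summed neuron markers lay between 1404 and 1440 RPKM in control and between 1341 and 1399 RPKM in *Qk* cKO. Only 4 of these 10 were lower by sign, and their median log2 fold change was 0.059. Of 10 hypothalamus and diencephalon markers, 7 had a mean under 1 RPKM and 6 were called lower, with a sum of 8.71 and 16.8 RPKM in control, the higher value in replicate 2, and of 4.62 and 6.28 RPKM in *Qk* cKO. Of 7 red cell markers 1 was called higher, and their sum was 807 to 822 RPKM in control and 867 to 1164 RPKM in *Qk* cKO. No gene was called in the lists for neurons, interneurons, meninges, endothelium, pericytes, microglia and the oligodendrocyte lineage. The part of these markers in the results below was not tested. In bulk RNA, fewer cells of a type and less RNA per cell cannot be told apart.

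Whether loss of *Qk* changed the mRNA levels of the receptors was addressed first. None of the 8 was called different between *Qk* cKO and control (edgeR's quasi-likelihood test on tags per gene, with a call needing p under 0.01 together with a Benjamini-Hochberg FDR under 0.1 over 18834 genes), against 0.584% of all genes tested. By sign, 4 were higher and 4 lower in *Qk* cKO, and the log2 fold changes ran from -0.16 for *Ntrk2* to 0.08 for *Erbb4*. Their median was -0.00646, beside -0.00253 over all genes. The 95% intervals of the 8 log2 fold changes lay between -0.28 and 0.31. At an unadjusted p under 0.05, 1 of the 8 passed, as did 8.76% of all genes. In RPKM, the groups did not overlap in 4 of the 8 (*Fgfr1*, *Fgfr3*, *Insr* and *Ntrk2*), against 36.9% of all genes.

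**Figure D1:**
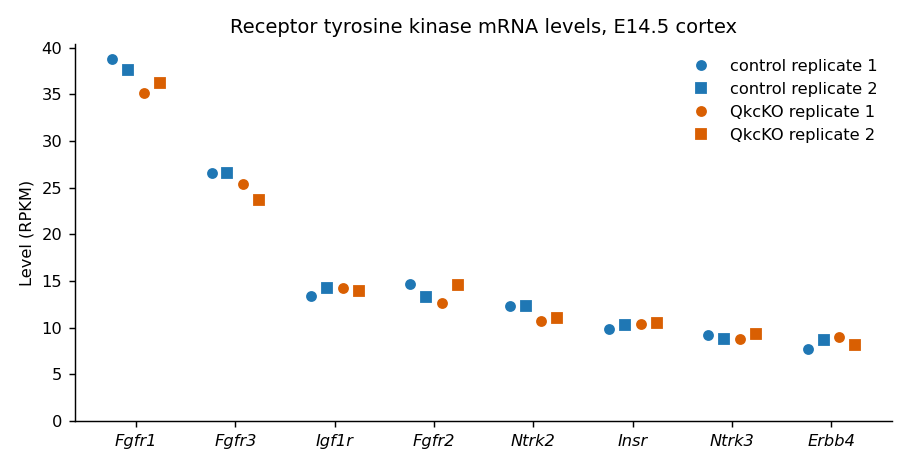
Level of each receptor mRNA (RPKM, linear axis from 0) in the 2 control samples (blue) and the 2 *Qk* cKO samples (orange), ordered by the mean of the 4 samples. The 4 values of a gene lie close together beside the distance from *Fgfr1*, between 35.1 and 38.8 RPKM, to *Erbb4*, between 7.72 and 9.01 RPKM.

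Among the FGF receptors, *Fgfr1* was the most abundant, at 38.8 and 37.6 RPKM in control and 35.1 and 36.2 RPKM in *Qk* cKO. Both *Qk* cKO samples lay below both controls, by a log2 fold change of -0.09 ± 0.05 (SE, edgeR FDR = 0.712). *Fgfr2* was at 14.7 and 13.3 RPKM in control and 12.6 and 14.6 RPKM in *Qk* cKO. The groups overlapped, and the log2 fold change was -0.03 ± 0.07 (SE, edgeR FDR = 0.950). *Fgfr3*, which radial glia express, was at 26.5 RPKM in both controls and at 25.4 and 23.6 RPKM in *Qk* cKO. The *Qk* cKO samples were both lower, with a log2 fold change of -0.10 ± 0.06 (SE, edgeR FDR = 0.685).

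The insulin-type receptors differed little. *Insr*, the receptor for insulin, was at 9.83 and 10.3 RPKM in control and at 10.4 RPKM in both *Qk* cKO samples. These lay above both controls by less than the distance between the controls, with a log2 fold change of 0.06 ± 0.07 (SE, edgeR FDR = 0.855). *Igf1r*, the receptor for the insulin-like growth factors, was at 13.4 and 14.2 RPKM in control and at 14.3 and 13.9 RPKM in *Qk* cKO. Its groups overlapped (log2 fold change 0.04 ± 0.05, SE, edgeR FDR = 0.884). *Erbb4* was at 7.72 and 8.67 RPKM in control and at 9.01 and 8.17 RPKM in *Qk* cKO. Here too the groups overlapped, with a log2 fold change of 0.08 ± 0.11 (SE, edgeR FDR = 0.894).

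Of the neurotrophin receptors, *Ntrk2* was at 12.3 RPKM in both controls and at 10.8 and 11 RPKM in *Qk* cKO. The groups were separate, and at -0.16 ± 0.05 (SE) the log2 fold change was the farthest from 0 among the 8, with an edgeR p of 0.00655 that did not pass the adjustment (FDR = 0.294). Its 95% interval ran from -0.28 to -0.05. *Ntrk2* is expressed by progenitors as well as by neurons. The summed markers of both, given above, were lower in *Qk* cKO without overlap. By sign, 7 of 10 radial glia and 4 of 10 neuron markers were lower, and the median log2 fold changes were -0.095 and 0.059. The part of these markers in the level of *Ntrk2* was not tested. *Ntrk3* was at 9.21 and 8.81 RPKM in control and at 8.78 and 9.28 RPKM in *Qk* cKO. The values interleaved, with a log2 fold change of 0.02 ± 0.08 (SE, edgeR FDR = 0.974).

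Per length, the order of the means over the 4 samples was *Fgfr1*, *Fgfr3*, *Igf1r*, *Fgfr2*, *Ntrk2*, *Insr*, *Ntrk3* and *Erbb4*, from 36.9 to 8.39 RPKM. *Igf1r* and *Fgfr2* had overlapping ranges, as did *Ntrk3* and *Erbb4*. The ranges of the other neighbours were separate.

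**Figure D2:**
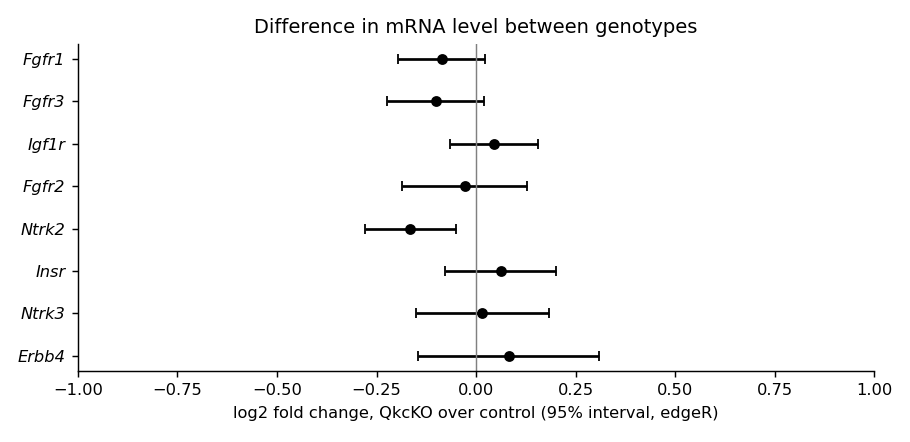
Log2 fold change of each receptor mRNA, *Qk* cKO over control (linear axis of log2 values), with the 95% interval from edgeR's quasi-likelihood fit of 2 samples per group. Only the interval of *Ntrk2*, from -0.28 to -0.05, excludes 0, and its FDR was 0.294.

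Splicing of the receptors was compared next. Of the 51 events, 35 were in *Fgfr2*, 7 in *Fgfr1*, 4 in *Fgfr3*, 2 in *Igf1r* and 1 each in *Insr*, *Erbb4* and *Ntrk2*. *Ntrk3* had 0. They cover cassette and tandem cassette exons, mutually exclusive exons, alternative 5′ and 3′ splice sites and retained introns. The alternative last exons that give the truncated forms of *Ntrk2* and *Ntrk3* are of another type and were not analysed here, and the event of *Ntrk2* had 0 junction tags. Coverage, defined for an event as the smallest marginal total when its junction tags are tabulated by isoform and group, reached the minimum of 20 in 24 events. In *Fgfr2*, 11 alternative 3′ splice site events held identical tags, so that 14 distinct sets were tested. None of the 14 was called by Fisher's exact test on isoform tags summed over replicates (same thresholds, adjusted within each event type), against 7.5% of all 11500 events tested. None was called by edgeR's interaction test (isoform by genotype), which takes the spread between embryos into account, against 0.557% of all events. At an unadjusted p under 0.05, 0 passed by either test, and the smallest p were 0.0546 (Fisher's exact test) and 0.102 (edgeR). Inclusion, from tags per junction, did not overlap between the groups in 7 of the 14, against 37.9% of all events. The 7 include the pair of *Fgfr2* IIIc forms described below, whose values rest mostly on a junction that both forms share. They also include the *Fgfr2* exon of 78 nt, whose separation rests on the junction into it, as described below. The inclusion difference ΔI is control minus *Qk* cKO. Its absolute value had a median of 0.0238 in the 14, beside 0.0256 over all events, and reached 0.1 in 1 of the 14 against 11.4% of all events. All 14 of the 95% intervals of ΔI held 0, and 5 lay wholly within 0.1 of 0. These intervals (Newcombe), the Wilson intervals of single samples and Fisher's exact test cover counting error only.

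**Figure D3:**
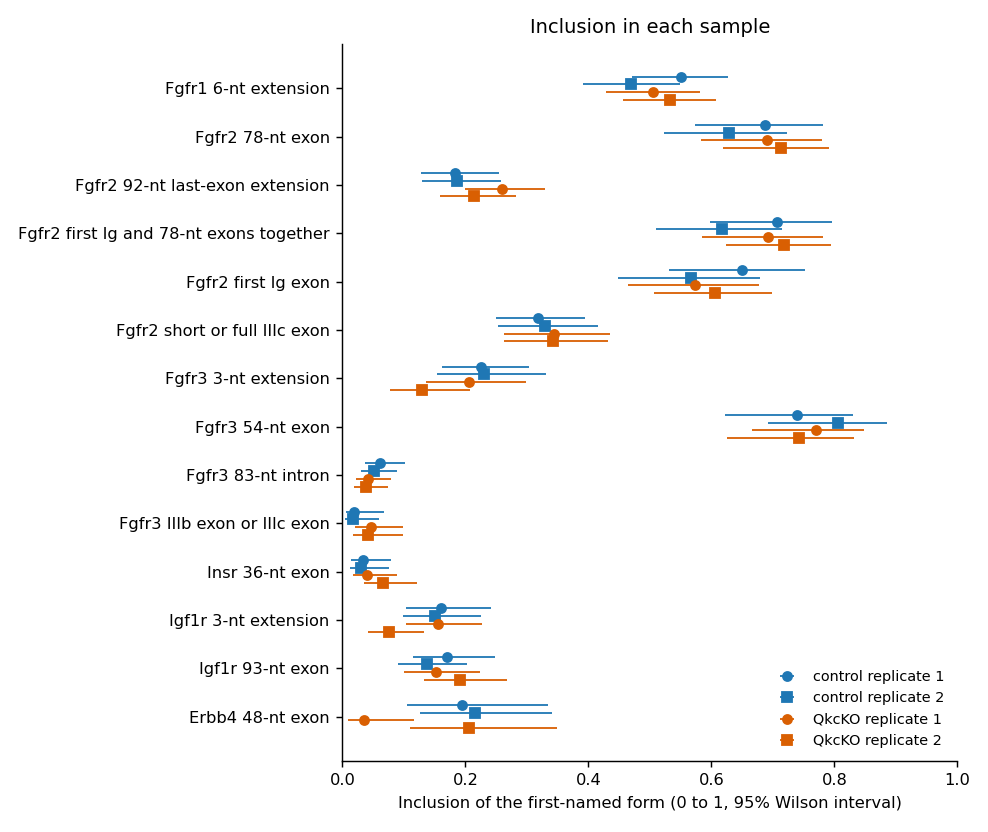
Inclusion in each sample (0 to 1, points, with 95% Wilson intervals as bars) for the 14 distinct events tested, control in blue and *Qk* cKO in orange. The value is for the form named first, the longer exon for an extension and the retained form for the intron. The first Ig exon is the *Fgfr2* exon of 267 nt. Single *Qk* cKO samples lie below the other 3 in *Erbb4* (replicate 1 at 0.0350), in the *Igf1r* 3-nt extension (replicate 2 at 0.0760) and in the *Fgfr3* 3-nt extension (replicate 2 at 0.130).

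The acid box exons were included in most transcripts. In *Fgfr3*, inclusion of the 54-nt exon was 0.739 and 0.806 in control and 0.769 and 0.742 in *Qk* cKO. The groups overlapped (ΔI = 0.0143, 95% interval -0.0872 to 0.113, Fisher's exact test p = 0.683, FDR = 0.932). For the 78-nt exon of *Fgfr2*, inclusion was 0.687 and 0.628 in control and 0.690 and 0.712 in *Qk* cKO. Both *Qk* cKO samples lay above both controls, and the group difference was smaller than the distance between the controls (ΔI = -0.0474, interval -0.146 to 0.0511, Fisher's exact test p = 0.393, FDR = 0.743). The preceding *Fgfr2* exon of 267 nt, at chr7:130242378-130242644, encodes most of the first Ig-like domain. Its inclusion was measured only against the direct join of the exon before it to the 78-nt exon. So measured, it was 0.65 and 0.567 in control and 0.574 and 0.606 in *Qk* cKO, and the groups overlapped (ΔI = 0.0171, interval -0.0925 to 0.125, Fisher's exact test p = 0.681). Transcripts that leave out both exons are not in this value, and the share of the 267-nt exon among all joins is given below. With both exons taken as a tandem cassette, the value was 0.706 and 0.618 in control and 0.692 and 0.718 in *Qk* cKO, with overlap (ΔI = -0.0456, Fisher's exact test p = 0.359). It averages over all inclusion junctions. The junction from the 78-nt exon onwards is also used by transcripts without the 267-nt exon, so this is not the share of transcripts that hold both.

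These *Fgfr2* events share junctions, since the exon before them can join the 267-nt exon, the 78-nt exon or the 170-nt exon that follows. Of the tags that left this exon, the 267-nt exon took 46.6% and 33.7% in control and 43.3% and 44.2% in *Qk* cKO. The 78-nt exon took 27.3% and 31.5% in control and 32.5% and 31.4% in *Qk* cKO. Joining the 170-nt exon directly, which leaves out both, accounted for 26.1% and 34.8% in control and 24.3% and 24.4% in *Qk* cKO, both below the controls. With 88 to 120 such tags per sample, the 95% Wilson intervals of these last shares overlapped between all 4 samples. The related exon of *Fgfr1*, also of 267 nt (chr8:25555508-25555774), was included almost always, with 2.74 tags for skipping among the 4 samples against 1394 on its inclusion junctions, and was not tested.

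The choice between IIIb and IIIc fell on IIIc in all 3 FGF receptors. In *Fgfr3*, tags on IIIb junctions were 4.05 of 210.0 and 4.0 of 237.0 in control, and 11 of 240.0 and 9.0 of 214 in *Qk* cKO. The IIIb share was thus 1.93% and 1.69% in control and 4.58% and 4.21% in *Qk* cKO, with both *Qk* cKO samples above both controls. Summed over replicates, ΔI was -0.0260 (interval -0.0628 to 0.00775), which did not pass (Fisher's exact test on isoform tags p = 0.143, FDR = 0.788). The isoform tags under that test gave IIIb a larger share than the junctions did. In control they were 30.0 and 41 for IIIb against 205 and 234 for IIIc. In *Qk* cKO they were 43 and 46 against 218 and 203. On junction tags alone the p was 0.0331 (Fisher's exact test, FDR = 0.197), and with edgeR's interaction test it was 0.189 (FDR = 1.0). In *Fgfr1*, IIIb tags were 5.04 and 2.02 in control and 1.04 and 0.0131 in *Qk* cKO, or 0.411% of all tags for both exons over the 4 samples. *Fgfr2* had 2.00 IIIb tags in control replicate 2 and 4.0 in *Qk* cKO replicate 1, with close to none in the other samples, or 0.867% over the 4 samples. Both genes stayed below the coverage minimum, so their IIIb shares were not tested. No tag joined the exon before to the exon after both forms in *Fgfr2*, beside 686 tags summed over the junctions on both sides of IIIc. A floor of 3 tags would be 0.437% of that sum. In tags per junction the share allowed is larger, since skipping has a single junction.

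**Figure D4:**
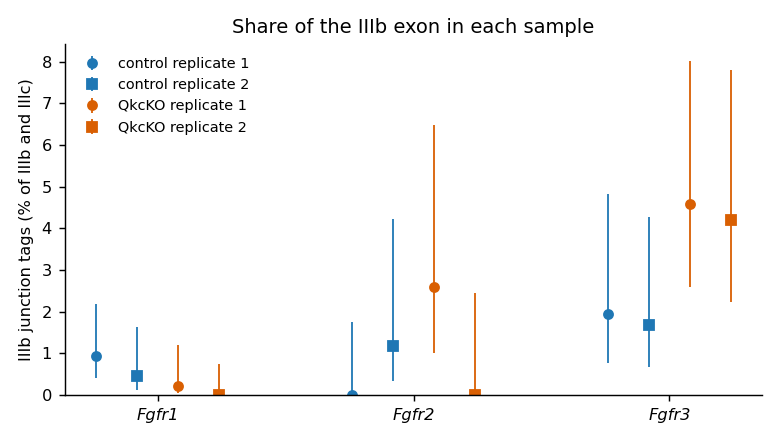
Share of IIIb junction tags among IIIb and IIIc junction tags (percent, points, with 95% Wilson intervals as bars) in each sample for the 3 FGF receptors. The shares lie between 1.69% and 4.58% in *Fgfr3* and at most at 2.59% in *Fgfr1* and *Fgfr2*.

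Epithelial splicing regulators, among them *Esrp1* and *Esrp2*, promote IIIb. *Esrp2* was not called in level, and its RPKM is not given here. *Esrp1* was listed between 0 and 0.00931 RPKM in the 4 samples, on 0 to 2 tags, and *Krt19*, an epithelial keratin, was the 1 of 8 epithelial markers that was called, at 0 in both controls and at 0.305 and 0.691 RPKM in *Qk* cKO. By sign, 4 of the 8 were lower in *Qk* cKO, and their median log2 fold change was -0.00547. The summed epithelial markers were at 4.77 to 7.11 RPKM in control and 4.96 to 8.02 RPKM in *Qk* cKO, with overlap. Their part in the IIIb share was not tested. A further pair of *Fgfr2* forms in the files, a 94-nt and the 145-nt version of exon IIIc, share the upstream junction, so that part of their tags are the same. By tags per junction, the 94-nt form came out at 0.317 and 0.329 in control and 0.344 and 0.342 in *Qk* cKO, without overlap (ΔI = -0.0204, Fisher's exact test p = 0.770). Nearly all of its tags were on the shared junction. At the downstream splice site that separates the forms, the 94-nt form had 0 tags in both controls and 0.838 and 2.0 in *Qk* cKO. The 145-nt form had 115 and 85 there in control and 72.2 and 76 in *Qk* cKO. The 94-nt form thus had 0.809% over the 4 samples, and the values by tags per junction do not measure its use.

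Shifts of a splice site were seen in 4 of the genes. The 6-nt extension of *Fgfr1* was used at 0.550 and 0.470 in control and at 0.505 and 0.533 in *Qk* cKO, and the groups overlapped (ΔI = -0.00905, interval -0.0867 to 0.0687, Fisher's exact test p = 1.0). Its coverage was 302. The 3-nt extension of *Fgfr3* was used at 0.225 and 0.231 in control and at 0.206 and 0.130 in *Qk* cKO. Both *Qk* cKO samples were lower, replicate 2 the more so, but the difference did not pass (ΔI = 0.0616, interval -0.0157 to 0.137, Fisher's exact test p = 0.264, FDR = 0.642). A 3-nt shift at a 3′ splice site of *Igf1r*, which was not placed on the annotation, was used at 0.161 and 0.151 in control and at 0.156 and 0.0760 in *Qk* cKO. Only *Qk* cKO replicate 2 was low (ΔI = 0.0403, interval -0.0196 to 0.102, Fisher's exact test p = 0.0546, FDR = 0.318). Without *Qk* cKO replicate 1, ΔI was 0.0795 and the event was called (Fisher's exact test, FDR = 0.0663), and without replicate 2 it was -0.000434. A 92-nt shift at the last exon of *Fgfr2*, which the annotation used here does not place, was used at 0.183 and 0.186 in control and at 0.259 and 0.214 in *Qk* cKO. Both *Qk* cKO samples were higher by junction tags (ΔI = -0.0525, interval -0.116 to 0.0123), whereas the isoform tags, which also count exon bodies, gave a Fisher's exact test p of 1.0 and the junction tags alone 0.116.

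In *Erbb4*, the exon of 48 nt was included at 0.195 and 0.215 in control and at 0.0350 and 0.205 in *Qk* cKO. *Qk* cKO replicate 1 stood apart, with 4.12 inclusion junction tags against 17.4 to 23.5 in the other 3 samples, and *Qk* cKO replicate 2 lay between the controls. The ΔI of 0.10 (interval -0.00113 to 0.201) was the largest of the 14, and did not pass (Fisher's exact test p = 0.103, FDR = 0.404, edgeR interaction test p = 0.297, FDR = 0.795). On junction tags alone, Fisher's exact test gave p = 0.0125 and FDR = 0.107. It rested on that sample. Without *Qk* cKO replicate 1, ΔI was 0.00112, and without replicate 2 it was 0.171 and was called (Fisher's exact test, FDR = 0.0552).

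The *Insr* exon of 36 nt was mostly skipped, as in isoform A. Inclusion was 0.0335 and 0.0305 in control and 0.0398 and 0.0666 in *Qk* cKO. Both *Qk* cKO samples were above the controls, on 8.0 to 18.1 inclusion junction tags per sample against 122 to 131 skipping tags (ΔI = -0.0216, interval -0.0591 to 0.0141, Fisher's exact test p = 0.138, FDR = 0.465). An *Igf1r* cassette exon of 93 nt (chr7:68208913-68209005), a multiple of 3 and not annotated in GENCODE M21, was included at 0.171 and 0.137 in control and at 0.152 and 0.191 in *Qk* cKO. Its groups overlapped (ΔI = -0.0188, interval -0.0824 to 0.0446, Fisher's exact test p = 0.0907, FDR = 0.383). An intron of 83 nt in *Fgfr3* (chr5:33734470-33734552) was retained at 0.0620 and 0.0521 in control and at 0.0422 and 0.0382 in *Qk* cKO. Both *Qk* cKO samples were lower (ΔI = 0.0168, interval -0.0128 to 0.0462, Fisher's exact test p = 0.138, FDR = 0.428).

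**Figure D5:**
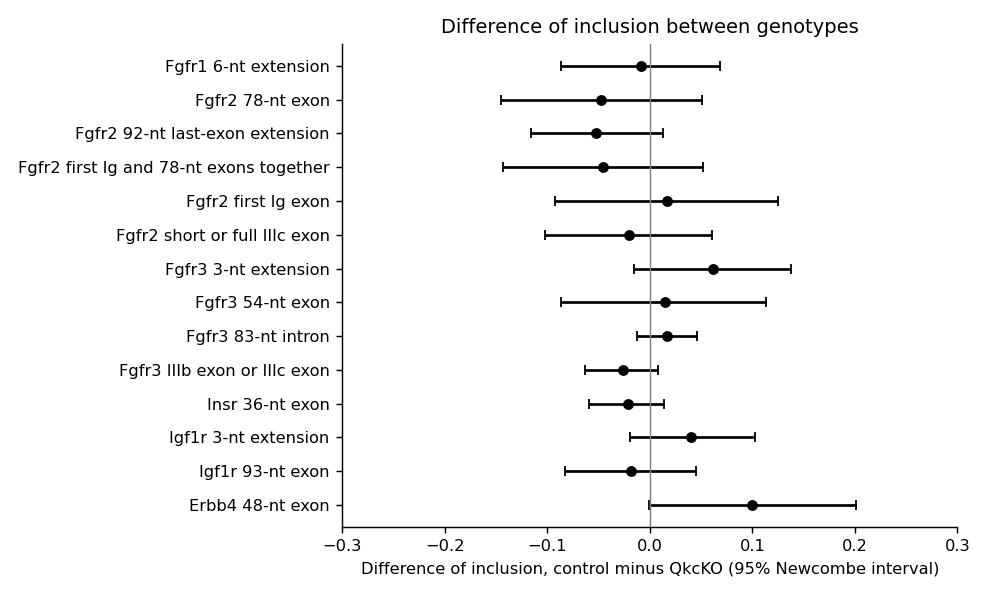
Inclusion difference ΔI, control minus *Qk* cKO, on tags summed over 2 samples per group, with the 95% Newcombe interval, for the 14 distinct events tested. All intervals hold 0, and the widest shift is that of the *Erbb4* exon at 0.10.

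The other genes of the same pathways were taken from 9 lists and described by counts, with no test of a list. Among ligands, 0 of 13 FGF genes, 0 of 12 genes of the neuregulin and EGF list and 0 of 11 of the neurotrophin list were called in level. *Fgf18*, a ligand made in the cortex, was at 1.54 and 1.80 RPKM in control and 2.74 and 2.00 RPKM in *Qk* cKO (log2 fold change 0.53, edgeR FDR = 0.593), and its log2 fold change ranged from 0.26 to 0.74 with a sample left out. *Fgf8*, a ligand of the early forebrain, was at 0.433 and 0.578 RPKM in control and 0.232 and 0.146 RPKM in *Qk* cKO, on 6 to 22 tags (log2 fold change -1.39, edgeR FDR = 0.616). Of 17 insulin and IGF genes, 1 was called. *Igfbp5*, which binds IGFs outside the cell, fell from 21.2 and 21.8 RPKM in control to 17.9 and 17.4 RPKM in *Qk* cKO (log2 fold change -0.27, edgeR FDR = 0.0430). That call was lost (FDR = 0.408, 0.920 and 0.240) when control replicate 1, control replicate 2 or *Qk* cKO replicate 2 was left out, and under edgeR's stricter filter on low tags (FDR = 0.166). Neither the 16 FGF co-receptors and binding proteins, nor the 12 FGF response genes, nor the 30 shared adaptors held a called gene. Sprouty 2, an inhibitor that FGF signaling induces (*Spry2*), was at 4.09 and 3.85 RPKM in control and 2.79 and 3.17 RPKM in *Qk* cKO, and did not pass (log2 fold change -0.40, edgeR FDR = 0.360). Only 4 of the 12 response genes were lower by sign. Among those higher, *Etv5* had the smallest p and did not pass (log2 fold change 0.15, edgeR FDR = 0.784). The median log2 fold changes were 0.03 in the response genes and 0.02 in the adaptors, beside -0.00253 over all genes, and 0.37 in the FGF ligands, of which 10 of 14 had a mean under 1 RPKM.

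Of 50 other receptor tyrosine kinases, 1 was called in level. *Ddr1*, a collagen receptor, fell from 70.6 and 73.6 RPKM in control to 59.7 and 55.8 RPKM in *Qk* cKO (log2 fold change -0.30, edgeR FDR = 0.0631). This call was lost too (FDR = 0.409, 0.920 and 0.412) when control replicate 1, control replicate 2 or *Qk* cKO replicate 2 was left out, with edgeR's exact test (FDR = 0.175) and under the stricter filter (FDR = 0.260). *Ddr1* also had a called cassette exon, included at 0.724 and 0.694 in control and at 0.620 and 0.567 in *Qk* cKO (ΔI = 0.115, Fisher's exact test FDR = 8.02e-04, edgeR interaction test FDR = 0.363). Without *Qk* cKO replicate 2, that event was not called (ΔI = 0.0885, Fisher's exact test FDR = 0.112). In splicing, 2 of 16 distinct events of this list were called, the other in *Aatk*, which was not called without control replicate 1 or *Qk* cKO replicate 1 (Fisher's exact test FDR = 0.349 and 0.184), against 0 of the 14 of the 8 receptors. Over all events tested, 7.5% were called, and the difference between the 2 sets was not tested.

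Among 15 splicing regulators known to act on receptor exons, none was called in level, while 5 of their 57 distinct events were called by Fisher's exact test, in *Mbnl2*, *Hnrnpa1*, *Celf1*, *Tra2b* and *Tia1*. This was 8.77% of their events, beside 7.5% of all events. With a sample left out, the *Tia1* event was called in all 4 fits and that of *Mbnl2* in the 3 that reached the coverage minimum. That of *Celf1* was not called without control replicate 2 (Fisher's exact test FDR = 0.152), and that of *Hnrnpa1* not without control replicate 2 or *Qk* cKO replicate 1 (FDR = 0.496 and 0.262). The *Tra2b* event was called in none of the 4 fits (FDR = 0.110 to 0.371), nor on junction tags alone (FDR = 0.132). A *Mbnl2* exon was included at 0.101 and 0.333 in control and at 0.778 and 0.902 in *Qk* cKO (ΔI = -0.640, Fisher's exact test FDR = 3.63e-06, edgeR interaction test FDR = 0.146). *Fgf17* had the only event tested among the FGF ligands, a shifted 3′ splice site used at 0.273 and 0.176 in control and at 0.625 and 0.400 in *Qk* cKO (ΔI = -0.324, Fisher's exact test FDR = 0.0289, edgeR interaction test FDR = 0.632). On junction tags alone its FDR was 0.216 (Fisher's exact test). Of the events in the remaining lists, 1 of 21 in the adaptors was called, in *Pik3r2*, and 0 of 18 in the others. The ΔI of the *Pik3r2* event was -0.00519 with overlapping groups, it was not called on junction tags alone (Fisher's exact test FDR = 0.820), and its coverage was too low for fits without a sample. None of the called events of the lists was called by edgeR's interaction test.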

How the data were processed

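Tags per gene, in estimated counts that need not be whole, RPKM per gene, and estimated counts of isoform and junction tags per splicing event were deposited by the authors for each sample. Per the paper's methods and the labels, libraries were made with TruSeq v2, reads were aligned to mm10 with OLego and quantified with Quantas. Versions are not given in the sources used here, and sources differ on the sequencer (NextSeq500 or HiSeq). Of tag values above 0, 13.6% were not whole (tolerance 1e-06). Assignment of fragments to genes and isoforms is part of these values, and the IIIb and IIIc exons depend on it.

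Tags were rounded and compared with edgeR 4.0.16 (R 4.3.3; quasi-likelihood, TMM) over all genes with at least 1 tag. Events with coverage of at least 20 were compared with Fisher's exact test (scipy 1.17.1) and, as an alternative, edgeR's interaction test. DESeq2 1.42.0, the exact test, other scaling, filters, coverage minimums, tags and adjustments, a replicate block and leaving out each sample were also tried. The tests were checked on simulated data. The simulated events had no spread between embryos, and the changed ones had high coverage, middle inclusion and large differences. They therefore cannot check false calls from that spread, nor power for small differences at low coverage. Exons were placed with GENCODE M21. The sequences of some alternative exons are not reported here. Named genes were the 8 receptors, *Qk*, every tested event, and from each list the called genes and those with the smallest p in each direction. The members and lists were chosen with earlier results of these data known.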

Additional observations from a re-analysis of the deposited data

How the results depend on the processing

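No receptor was called in level under upper-quartile scaling, DESeq2, edgeR's exact test, edgeR's stricter filter on low tags (filterByExpr), a replicate block or with any sample left out (0 to 0 called). No event of the receptors was called with junction tags only, coverage of at least 10 or 50, adjustment over all types, edgeR's interaction test or the mean of the replicates' inclusion, and 0 to 1 with a sample left out. In the 9 pathway lists, 2 genes were called in the main test, 1 with edgeR's exact test, 0 with filterByExpr, 4 with the replicate block and 0 to 7 with a sample left out. Over all genes, 110 were called in the main test, 81 with DESeq2, 57 with the exact test, 11 with filterByExpr, 192 with the replicate block and 0 to 428 with a sample left out. Over all events, 862 were called by Fisher's exact test and 64 by edgeR's interaction test. The cause of these shifts was not tested.

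The replicate block uses the numbers in the labels, which name no shared litter. The deviations of same-numbered samples correlated at 0.384 over all genes and at -0.0728 over autosomal genes. The block gave 0 called receptors and 0 called receptor events (Cochran-Mantel-Haenszel test). It added calls of *Sdc3* (-0.23 on the log2 scale) and *Sorcs2* (-0.52), whose values without the block ranged from -0.35 to -0.12 and from -0.82 to -0.20 with a sample left out.

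With a sample left out, signs turned in values near 0. The log2 fold change ranged from -0.13 to 0.060 in *Fgfr2*, from -0.00487 to 0.16 in *Erbb4* and from -0.021 to 0.050 in *Ntrk3*. The ΔI ranged from -0.0246 to 0.0578 for the *Fgfr2* 267-nt exon, from -0.0886 to 0.000233 for the tandem, from -0.0185 to 0.0492 for the *Fgfr3* 54-nt exon, from -0.0382 to 0.000631 for the *Igf1r* 93-nt exon, from -0.0492 to 0.0311 for the *Fgfr1* 6-nt extension and from -0.000434 to 0.0795 for the *Igf1r* 3-nt extension. The log2 fold change of *Qk* ranged from 0.62 to 0.67. With coverages of 28.1 to 341, most receptor events could not be bounded within 0.1 of 0. The highest coverage rests mostly on the junction that the *Fgfr2* IIIc forms share.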
